A study of Mus musculus with 12 samples.

Results

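Interferon-stimulated genes are the genes that cells switch on when an interferon binds its receptor. Here 40 such genes of the mouse were followed on bead arrays of sorted hematopoietic stem cells (HSCs). A gene was represented by a probe whose platform annotation gave exactly that symbol, and among several such probes by the one with the highest mean intensity. Of the 40 genes, 35 had such a probe, out of 17711 genes represented in this way on the array. A probe counted as detected on an array at a deposited detection p under 0.05, and detection on both arrays of at least 1 group was the condition for a test. It was met by 22 of the 35 genes, and by 8343 of the 17711 (47.1%). The list names genes and sets no threshold on their values.

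The series concerns the competition between HSCs that express a mutant p53 and HSCs that do not, in irradiated bone marrow. Cells were sorted as lineage-negative, c-Kit-positive, Sca-1-positive, CD48-negative and CD150-positive, and each array held amplified RNA of 200 cells. The mutant p53 (mp53) was expressed from the R26 locus (R26-mp53). In mosaic mice the mp53 cells also carried GFP and the wild-type (WT) cells were GFP-negative, while the fully recombined R26-mp53 mice served without competition. The 6 groups, of 2 arrays each, were as follows. Winners were mp53 cells of irradiated mosaic mice, and losers were the WT cells of irradiated mosaic mice. Non-competing irradiated mp53 cells came from fully recombined R26-mp53 mice, and non-competing irradiated WT cells from WT mice. The mp53 and the WT cells of mosaic mice that were not irradiated made up the remaining groups, which the labels mark as without competition. Irradiated mice received 2.5 Gy and were killed 3 weeks later, and the labels give no age. The irradiated groups differ from each other in genotype, in the kind of mouse and in the presence of a competitor, and the unirradiated groups came from mosaic mice alone. The irradiated non-competing groups therefore have no unirradiated controls of their own kind of mouse among the arrays analysed here.

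Interferons bind cell-surface receptors whose JAK kinases phosphorylate STAT proteins. Stat2 and Irf9 are subunits of the factor ISGF3, which binds interferon-stimulated response elements (ISREs) in promoters, and dimers of STAT proteins bind gamma-activated sites (GAS). Many of the genes restrict viruses. Stem cells are known to hold part of this programme at a constant, interferon-independent level, and acute type I interferon is known to drive dormant HSCs into the cell cycle.

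The promoters were read from RefSeq windows of build GRCm38.p6 that run from 250 bases before to 50 after a start site. Of the 40 genes, 32 had at least 1 window and 8 had none (Dhx58, Mx1, Mx2, Oas2, Parp14, Parp9, Rtp4 and Usp18). The core of the ISRE was searched as GAAA, any 2 bases and GAAA again, on both strands, and matches may overlap each other. It occurred in the windows of 17 of the 32 genes (53.1%), against 1079 of all 27025 genes with a window (3.99%) and 1131 of all 32851 windows (3.44%). The GAS letters TTCNNNGAA occurred in 9 of the 32 (28.1%), against 9.55% of all genes and 8.3% of all windows. Genes detected on all 12 arrays held the ISRE core in 7 of 12 (58.3%), those detected on some arrays in 3 of 11 (27.3%), those detected on none in 4 of 5 (80%) and those with no probe used in 3 of 4 (75%). Genes that were never detected thus held the letters too. A match is a description of the sequence and says nothing of binding in these cells.

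The 250 bases before the start site are printed for 5 genes, 5′ to 3′ in the direction of the gene, with matches to the ISRE core in capitals. Rsad2 and Ifitm2 are shown because both winner arrays lay above all other arrays, Ifitm1 because both lay below, and Bst2 and Ifit1 because both hold 2 matches while Bst2 was detected on all 12 arrays and Ifit1 on none. The windows lie at chr12:26456453-26456702 on the minus strand (Rsad2), chr7:140967826-140968075 on the plus strand (Ifitm1), chr7:140955962-140956211 on the minus strand (Ifitm2), chr8:71537473-71537722 on the minus strand (Bst2) and chr19:34640639-34640888 on the plus strand (Ifit1).
Rsad2: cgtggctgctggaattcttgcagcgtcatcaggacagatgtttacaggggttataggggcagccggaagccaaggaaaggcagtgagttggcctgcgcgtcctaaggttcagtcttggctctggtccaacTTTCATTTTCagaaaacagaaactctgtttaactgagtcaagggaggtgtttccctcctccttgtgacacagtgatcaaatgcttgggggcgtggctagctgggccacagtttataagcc
Ifitm1: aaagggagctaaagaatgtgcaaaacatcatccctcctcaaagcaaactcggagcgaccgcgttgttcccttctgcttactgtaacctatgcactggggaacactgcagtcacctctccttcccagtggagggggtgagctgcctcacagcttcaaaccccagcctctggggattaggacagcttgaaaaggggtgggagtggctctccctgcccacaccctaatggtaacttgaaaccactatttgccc
Ifitm2: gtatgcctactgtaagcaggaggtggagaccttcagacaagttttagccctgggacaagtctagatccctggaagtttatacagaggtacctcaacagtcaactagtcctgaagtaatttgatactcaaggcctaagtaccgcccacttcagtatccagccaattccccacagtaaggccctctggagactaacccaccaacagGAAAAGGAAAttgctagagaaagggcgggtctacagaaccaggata
Bst2: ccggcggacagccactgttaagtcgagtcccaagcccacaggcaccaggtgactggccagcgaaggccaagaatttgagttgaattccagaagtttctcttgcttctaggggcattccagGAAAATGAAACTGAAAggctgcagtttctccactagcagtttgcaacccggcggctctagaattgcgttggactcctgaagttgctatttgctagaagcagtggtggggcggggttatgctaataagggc
Ifit1: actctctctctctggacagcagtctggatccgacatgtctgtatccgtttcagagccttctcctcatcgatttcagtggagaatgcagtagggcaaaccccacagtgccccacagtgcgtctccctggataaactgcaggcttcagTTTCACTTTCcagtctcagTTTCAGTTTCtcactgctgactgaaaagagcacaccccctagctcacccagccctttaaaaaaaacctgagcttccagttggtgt

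Counted from the start site, the match of Rsad2 ran from -120 to -111, on the strand opposite to the gene, and that of Ifitm2 from -46 to -37. The stretch printed for Ifitm1 held none, nor did the rest of its window, although Ifitm1, Ifitm2 and Ifitm3 are neighbouring paralogs. Ifitm3 had 2 matches, both after the start site. In Bst2 the 2 matches overlap, and in Ifit1 they run from -104 to -95 and from -85 to -76.

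**Figure D1:**
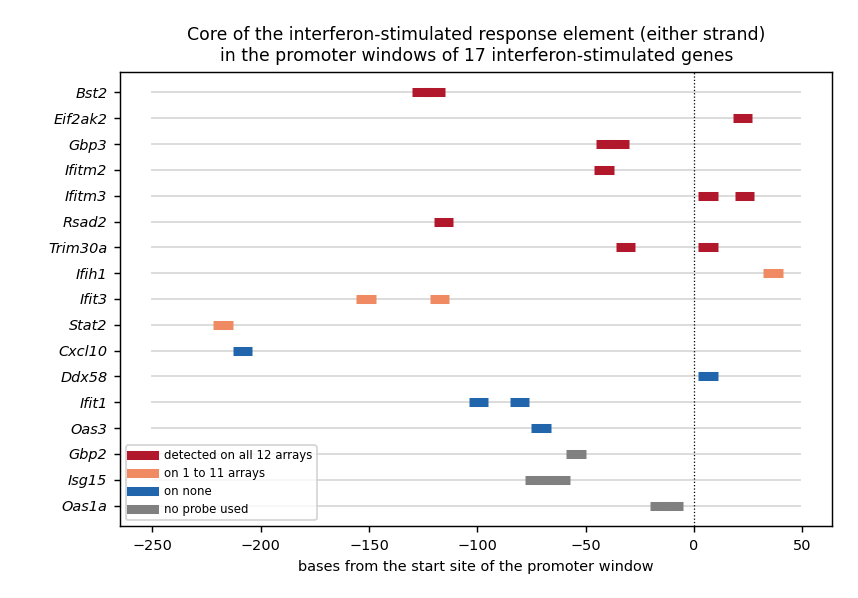
Position of each match to the ISRE core (bars, either strand) in the RefSeq promoter windows of the 17 genes that hold one, in bases from the start site on the x axis; a gene with several windows is drawn on 1 line. Colours give the number of arrays on which the gene was detected: genes detected on none, such as Ifit1, hold the letters as genes detected on all 12 do, such as Bst2.

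Brightness was unequal between arrays. The 95th percentile of raw intensity was lowest in unirradiated mosaic mp53 replicate 1 (82.3), next lowest in loser replicate 1 (107) and highest in winner replicate 2 (1080). Between 8968 and 13489 of 46632 probes were detected per array (19.2% to 28.9%). Within a group the 2 arrays correlated at 0.768 (unirradiated mosaic mp53) to 0.92 (winner), while arrays of different groups with the same replicate number had a median correlation of 0.924. A difference between 2 groups had a standard error of 0.44 log2 at the median over probes, and the number of arrays limits the precision. Quantile normalization gives all arrays 1 distribution. Under median scaling, the alternative, the arrays kept their unequal spread, and the median of all probes shifted by -0.73 to 1.07 between 2 groups and by 0.68 and 1.80 in the interactions. The labels call the arrays biological replicates without saying whether these were separate mice or pools, so p-values measure the spread between these samples, which may be partly technical. No probe with 1 symbol was matched to Trp53 or Ly6a, so the mutant p53 and the gene of Sca-1 were not checked. Of 21 HSC marker genes 19 had a probe. Kit, the gene of c-Kit, and Meis1 were detected on all 12 arrays, while Procr and Hlf were detected in no group and Slamf1, the gene of CD150, in losers and unirradiated mosaic WT cells alone.

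In all groups part of the gene set was measurable with no interferon treatment named in the labels. The probes of 13 genes were detected on all 12 arrays, those of 14 on some arrays and those of 8 on none. Of all genes on the array, 22.5% were detected on all arrays and 38.4% on none. The genes always detected were the antiviral effectors Isg20, Rsad2, Trim30a, Bst2, Eif2ak2 and Adar, the ubiquitin ligase Trim25, the membrane proteins Ifitm1, Ifitm2 and Ifitm3, the GTPase Gbp3, and Parp9 with its partner Dtx3l. Those never detected were Ifit1, Oasl2, Oas3, Mx1, Rtp4, the RNA sensor genes Ddx58 (RIG-I) and Dhx58 (LGP2), and the chemokine gene Cxcl10. Several of these are known as strongly induced genes, but a probe that is not detected gives only a bound. Isg15, Usp18, Oas1a, Ifi44 and Gbp2 had no probe with that symbol alone and were not analysed here. Probes of closely related members of the Ifitm, Ifit and Oas families could also bind each other's transcripts, which was not tested.

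More of the 35 probes were detected in winners (24 and 23) than in losers (17 and 18). The numbers were 19 and 22 in non-competing irradiated mp53 cells, 19 and 22 in non-competing irradiated WT cells, 17 and 19 in unirradiated mosaic mp53 cells and 21 and 22 in unirradiated mosaic WT cells. Over all probes, too, 28.7% and 28.9% were detected in winners and 21.4% and 23.5% in losers, so the order of these groups was the same for the whole array. Ifit3, Irf7, Oasl1 and Oas2 met the condition for testing through the winners alone, as did 6.96% of all tested probes. For such genes the condition favours high values in that group, though Irf7 averaged 4.86 there and 4.92 in unirradiated mosaic mp53 cells. The remaining 18 tested genes met it through at least 2 groups, as did 11357 of all 13512 tested probes, and counts of genes whose arrays do not overlap are given over these 18.

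**Figure D2:**
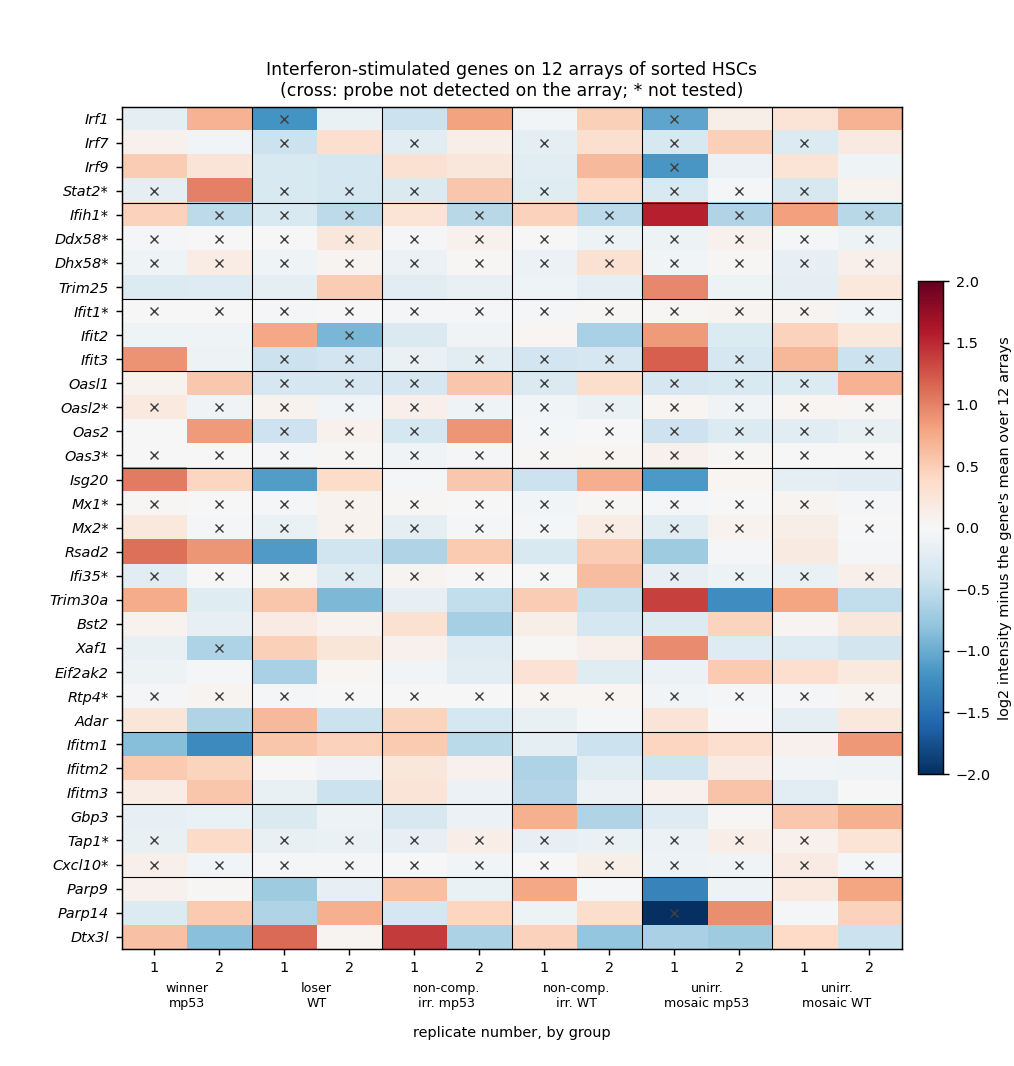
Log2 intensity of the 35 genes with a probe (rows, ordered by role) on the 12 arrays (columns), each minus the gene's own mean over the arrays; crosses mark arrays on which the probe was not detected, and asterisks genes that were not tested. The winner columns stand high for Rsad2 and low for Ifitm1, and rows such as Trim30a and Dtx3l alternate between replicate 1 and replicate 2.

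Levels below are log2 intensities after background correction and quantile normalization, on which a difference of 1 is a factor of 2, and levels of different genes are not comparable. Among the factors that carry the signal, Irf9, the DNA-binding subunit of ISGF3, measured 6.13 and 5.88 in winners and 5.31 and 5.27 in losers. It measured 5.93 and 5.85 in non-competing irradiated mp53 cells, 5.41 and 6.27 in non-competing irradiated WT cells, 4.45 and 5.50 in unirradiated mosaic mp53 cells and 5.90 and 5.53 in unirradiated mosaic WT cells. Both winner values lay above both loser values, and the lowest value, on an array where the probe was not detected, was in unirradiated mosaic mp53 replicate 1. Stat2, another subunit of ISGF3, was detected on 4 arrays, all of replicate 2, and measured 4.43 and 5.62 in winners and 4.31 and 4.26 in losers. In the other groups Stat2 measured 4.33 and 5.16 (non-competing irradiated mp53), 4.37 and 5.0 (non-competing irradiated WT), 4.30 and 4.59 (unirradiated mosaic mp53) and 4.29 and 4.68 (unirradiated mosaic WT). It was not tested.

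Irf1, a transcription factor known as an early target of interferon gamma, measured 5.37 and 6.24 in winners, 4.35 and 5.42 in losers, 5.11 and 6.35 in non-competing irradiated mp53 cells and 5.49 and 6.02 in non-competing irradiated WT cells. In unirradiated mosaic mice it measured 4.49 and 5.67 in mp53 cells and 5.82 and 6.24 in WT cells. In every group the replicate 2 array was the higher. The lowest 2 values, both on arrays where the probe was not detected, were those of the 2 dimmest arrays. Irf7, which drives the interferon alpha genes, was detected on 7 arrays. Among the replicate 1 arrays only that of winners detected it. It stayed between 4.42 and 5.32 on all arrays, with 4.93 and 4.79 in winners and 4.42 and 5.18 in losers. Its remaining values were 4.62 and 4.96 in non-competing irradiated mp53 cells, 4.65 and 5.16 in non-competing irradiated WT cells, 4.53 and 5.32 in unirradiated mosaic mp53 cells and 4.57 and 5.02 in unirradiated mosaic WT cells. The groups overlapped for Irf7.

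Of the sensors and effectors that bind RNA, Ifit2 measured 5.59 and 5.61 in winners, 6.45 and 4.76 in losers, 5.38 and 5.60 in non-competing irradiated mp53 cells, 5.72 and 5.03 in non-competing irradiated WT cells, 6.53 and 5.40 in unirradiated mosaic mp53 cells and 6.13 and 5.88 in unirradiated mosaic WT cells. Ifit3, which binds Ifit1 and viral RNA, was detected on 4 arrays and measured 5.62 and 4.62 in winners, 4.30 and 4.34 in losers, 4.59 and 4.51 in non-competing irradiated mp53 cells, 4.34 and 4.38 in non-competing irradiated WT cells, 5.91 and 4.38 in unirradiated mosaic mp53 cells and 5.39 and 4.29 in unirradiated mosaic WT cells. The detections of Ifit3 were both winner arrays and the replicate 1 array of each unirradiated group. Oasl1, of the oligoadenylate synthetase family that activates RNase L or sensors, was detected on 5 arrays and measured 4.69 and 5.16 in winners, 4.29 and 4.29 in losers, 4.28 and 5.18 in non-competing irradiated mp53 cells, 4.33 and 4.97 in non-competing irradiated WT cells, 4.28 and 4.32 in unirradiated mosaic mp53 cells and 4.35 and 5.31 in unirradiated mosaic WT cells. Oas2 of the same family was detected on 3 arrays, 2 of them winners, and ranged from 4.22 to 5.51. Mx2, Ifi35 and Tap1, the peptide transporter of antigen presentation, were detected on 1 or 2 arrays each, stayed at or below 5.11 and were not tested. Ifih1, the RNA sensor MDA5, was detected on 5 arrays and not tested either.

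Of the antiviral effectors that every array detected, Eif2ak2 (PKR), the kinase that halts translation on double-stranded RNA, measured 8.03 and 8.11 in winners, 7.49 and 8.18 in losers, 8.08 and 7.93 in non-competing irradiated mp53 cells, 8.43 and 7.90 in non-competing irradiated WT cells, 8.02 and 8.66 in unirradiated mosaic mp53 cells and 8.48 and 8.33 in unirradiated mosaic WT cells. Bst2, the tetherin that holds budding virus at the cell surface, measured 8.73 and 8.50 in winners, 8.83 and 8.73 in losers, 8.96 and 7.99 in non-competing irradiated mp53 cells, 8.78 and 8.31 in non-competing irradiated WT cells, 8.39 and 9.11 in unirradiated mosaic mp53 cells and 8.71 and 8.88 in unirradiated mosaic WT cells. Neither gene set winners apart from the other groups. Adar, which edits double-stranded RNA, ranged from 6.13 to 7.38, also with overlap. Gbp3, an interferon-induced GTPase, measured 5.61 and 5.64 in winners, 5.48 and 5.68 in losers, 5.46 and 5.66 in non-competing irradiated mp53 cells, 6.48 and 5.18 in non-competing irradiated WT cells, 5.52 and 5.80 in unirradiated mosaic mp53 cells and 6.31 and 6.48 in unirradiated mosaic WT cells. Its highest values were one of the non-competing irradiated WT arrays and both unirradiated mosaic WT arrays.

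The ADP-ribosyltransferases Parp9 and Parp14 and the ubiquitin ligase Dtx3l, which forms a complex with Parp9, are encoded as neighbours. Parp9 measured 6.59 and 6.52 in winners, 5.79 and 6.33 in losers, 7.10 and 6.37 in non-competing irradiated mp53 cells, 7.27 and 6.46 in non-competing irradiated WT cells, 5.17 and 6.40 in unirradiated mosaic mp53 cells and 6.70 and 7.28 in unirradiated mosaic WT cells. Parp14 measured 6.73 and 7.53 in winners, 6.40 and 7.71 in losers, 6.66 and 7.44 in non-competing irradiated mp53 cells, 6.91 and 7.36 in non-competing irradiated WT cells, 4.95 and 7.94 in unirradiated mosaic mp53 cells and 6.98 and 7.46 in unirradiated mosaic WT cells. The lowest array for both was unirradiated mosaic mp53 replicate 1, where Parp14 was not detected. Dtx3l measured 7.08 and 5.66 in winners, 7.63 and 6.54 in losers, 7.89 and 5.86 in non-competing irradiated mp53 cells, 6.95 and 5.71 in non-competing irradiated WT cells, 5.84 and 5.78 in unirradiated mosaic mp53 cells and 6.89 and 6.06 in unirradiated mosaic WT cells, and its replicate 1 array was the higher in every group.

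The comparison of winners with losers asks how the cells that prevail and those that recede in the same irradiated marrow differ. Rsad2 lay higher in winners and Ifitm1 lower, but neither passed the test. Of the 22 tested genes, 15 lay higher and 7 lower in winners, with a median difference of 0.33 log2, beside -0.04 over all tested probes. For the 4 genes tested through the winners alone the condition favours high values there. Over the remaining 18 genes 11 lay higher and 7 lower, with a median of 0.15, beside -0.08 over the probes that met the condition in the same way. Without the detection condition the median of all 35 genes was 0.06, and with the stricter one, a detection p under 0.01, it was 0.15. Within replicate 1 the median was 0.36 and within replicate 2 it was 0.12, and it was 0.18 without winner replicate 2 and 0.50 without loser replicate 2. Both winner arrays lay above both loser arrays for 6 of the 18 genes (33.3%, beside 22.7% of such probes): Rsad2, Isg20, Irf9, Ifitm2, Ifitm3 and Parp9. They lay below for 3 of the 18 (16.7%, beside 30.3%): Ifitm1, Xaf1 and Trim25. In this comparison limma called 0 of 13512 probes at a Benjamini-Hochberg adjusted p under 0.05 (0%), and the smallest adjusted p was 0.292. At an unadjusted p under 0.05 there were 1853 probes, with 1 of the 22 genes higher (Rsad2, beside 7.34% of probes) and 1 lower (Ifitm1, beside 6.37%). Ifit3 and Oasl1, 2 of the genes tested through the winners alone, were not detected in losers, and no fold is given for them. Over the 13 genes detected on all arrays, a grouping made after the values were seen, 8 lay higher and 5 lower, with a median of 0.23.

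Rsad2, the gene of viperin, an enzyme that makes a chain-terminating nucleotide, had 8.68 and 8.46 log2 intensity in winners, against 6.45 and 7.18 in losers. It had 6.98 and 8.11 in non-competing irradiated mp53 cells, 7.28 and 8.08 in non-competing irradiated WT cells, 6.87 and 7.56 in unirradiated mosaic mp53 cells and 7.76 and 7.54 in unirradiated mosaic WT cells. Both winner arrays lay above the other 10 arrays, and the loser group had the lowest mean. Rsad2 averaged 8.57 ± 0.16 in winners and 6.82 ± 0.52 in losers (SD, n = 2 each), a difference of 1.76 (SE 0.47, adjusted p = 0.292). The difference was 2.24 within replicate 1 and 1.27 within replicate 2.

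Ifitm1 encodes a membrane protein that restricts the entry of enveloped viruses. It measured 8.78 and 8.37 in winners, against 10.19 and 10.10 in losers. The values were 10.16 and 9.10 in non-competing irradiated mp53 cells, 9.46 and 9.20 in non-competing irradiated WT cells, 10.07 and 9.98 in unirradiated mosaic mp53 cells and 9.73 and 10.50 in unirradiated mosaic WT cells. Both winner arrays lay below the other 10. Ifitm1 averaged 8.57 ± 0.29 in winners and 10.15 ± 0.06 in losers (SD, n = 2 each), a difference of -1.57 (SE 0.40, adjusted p = 0.292) that turned to 0.49 under median scaling. Under that scaling the median of all probes itself stood at 1.07 in this comparison, and Ifitm1 lay at -0.59 relative to it. A second Ifitm1 probe measured 7.61 and 7.38 in winners and 7.84 and 8.03 in losers, a difference of -0.44 that turned to 1.54 under median scaling.

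The other Ifitm genes did not share the pattern of Ifitm1. Ifitm2 measured 10.16 and 10.08 in winners and 9.62 and 9.56 in losers, 9.86 and 9.72 in non-competing irradiated mp53 cells, 9.01 and 9.41 in non-competing irradiated WT cells, 9.23 and 9.79 in unirradiated mosaic mp53 cells and 9.58 and 9.56 in unirradiated mosaic WT cells. Both winner arrays lay above the other 10, and the difference from losers was 0.53 (SE 0.28, adjusted p = 0.406). A second Ifitm2 probe measured 6.18 and 5.57 in winners and differed by 0.31 from losers. It measured 6.59 and 6.54 in unirradiated mosaic WT cells, so winners did not stand apart on that probe. Ifitm3, which blocks viral fusion in endosomes, measured 8.84 and 9.25 in winners and 8.55 and 8.27 in losers. Its other values ran from 8.11 (non-competing irradiated WT) to 9.27 (unirradiated mosaic mp53), so the winners did not stand apart. Over the array, both winner arrays lay above the other 10 for 4.01% of the tested probes and below for 3.68%. Among the 22 genes the numbers were 2 above (Rsad2 and Ifitm2) and 2 below (Ifitm1 and Trim25).

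Trim25, the ubiquitin ligase that activates RIG-I, measured 8.91 and 8.92 in winners, 8.99 and 9.69 in losers, 8.95 and 9.04 in non-competing irradiated mp53 cells, 9.10 and 8.98 in non-competing irradiated WT cells, 10.14 and 9.08 in unirradiated mosaic mp53 cells and 8.98 and 9.39 in unirradiated mosaic WT cells. Both winner arrays lay below the other 10 and close to the non-competing arrays, and the difference from losers, -0.43 (SE 0.39, adjusted p = 0.598), turned to 1.65 under median scaling. Isg20, an exonuclease of single-stranded RNA, measured 7.35 and 6.75 in winners and 5.20 and 6.69 in losers, a difference of 1.11 (SE 0.62, adjusted p = 0.431) that came almost wholly from replicate 1, with 2.15 there and 0.06 in replicate 2. Its other values were 6.28 and 6.86 in non-competing irradiated mp53 cells, 5.88 and 7.05 in non-competing irradiated WT cells, 5.16 and 6.36 in unirradiated mosaic mp53 cells and 6.12 and 6.09 in unirradiated mosaic WT cells. The low arrays for Isg20 were again the 2 dimmest. Xaf1, known to promote apoptosis by antagonising XIAP, measured 5.03 and 4.56 in winners, 5.65 and 5.42 in losers, 5.26 and 4.91 in non-competing irradiated mp53 cells, 5.19 and 5.28 in non-competing irradiated WT cells, 6.11 and 4.92 in unirradiated mosaic mp53 cells and 4.91 and 4.81 in unirradiated mosaic WT cells. The probe of Xaf1 was not detected in winner replicate 2. The difference of winners from losers was -0.74 (SE 0.39, adjusted p = 0.411). The groups overlapped for Irf1 (0.92) and for Dtx3l (-0.72, which turned to 0.98 under median scaling). Relative to the median of all probes under that scaling, 1.07, Dtx3l lay at -0.09 and Trim25 at 0.57.

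**Figure D3:**
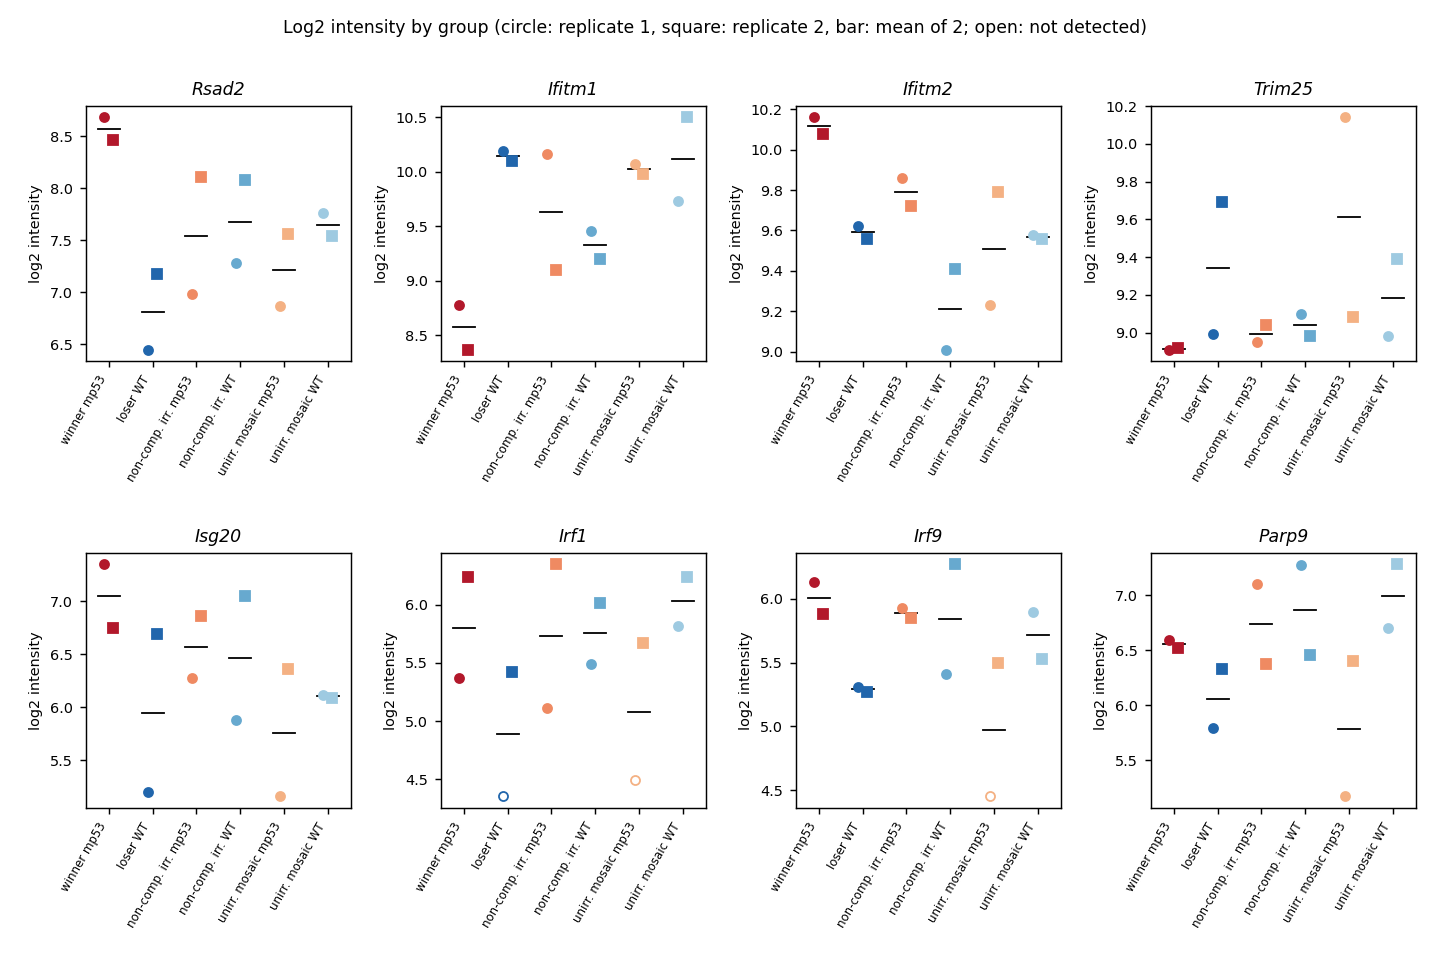
Log2 intensity of 8 interferon-stimulated genes in the 6 groups; circles are replicate 1, squares replicate 2, bars the mean of the 2 arrays, open symbols arrays on which the probe was not detected, and each panel has its own y axis, which does not start at 0. The winners stand above all other arrays for Rsad2 and Ifitm2 and below them for Ifitm1 and Trim25, and under median scaling the differences of Ifitm1 and Trim25 from losers turned to 0.49 and 1.65, beside 1.07 for all probes.

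Markers of the sorted cells and of other cells differed in the same comparison. Of the HSC markers, all 17 tested lay lower in winners (median -2.01), with a summed linear intensity of 828 and 1540 on the winner arrays against 5710 and 6610 on the loser arrays. Slamf1 and Tek were each tested through a single group that was not the winners, which favours low values in winners. The other 15 HSC markers all lay lower too, with a median of -2.10, and the later counts of 17 include Slamf1 and Tek. All 15 tested granulocyte and monocyte markers lay higher (sums of 38000 and 42100 in winners, 4910 and 23300 in losers), as did all 6 tested macrophage and dendritic markers (1140 and 2770 in winners, 523 and 705 in losers). Erythroid markers lay higher for 8 of 9 (sums of 4390 and 6760 in winners, 315 and 2040 in losers) and T and NK markers for all 4 (570 and 1230 in winners, 204 and 615 in losers), with 1 of each list tested through the winners alone. Of 10 tested B lineage markers 7 were tested through the winners alone, which favours high values there. The sums of this list were 773 and 2090 in winners and 355 and 369 in losers. Plasmacytoid dendritic cells are known for making interferon, and the sums of their markers were 1140 and 1950 in winners and 1470 and 1620 in losers. Of 7 tested markers of these cells 3 lay higher and 4 lower in winners (median -0.03). Of the 7, 3 were tested through the winners alone, and of the remaining 4, 1 lay higher and 3 lower. Both winner arrays detected 6 of the 9 markers with a probe, and both loser arrays 2. Bst2 belongs to that list too. Under median scaling 14 of the 17 HSC markers lay lower in winners (median -0.66), and all 15 granulocyte and monocyte markers lay higher. Cd48, which the sort excludes, was detected on both arrays of winners, losers, non-competing irradiated WT cells and unirradiated mosaic WT cells. It averaged 7.0 in winners and 4.96 in losers. None of these markers passed the test, and their part in the differences of the interferon-stimulated genes was not tested. In such pooled RNA, more cells of a type and more RNA per cell cannot be told apart.

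Winners were set against non-competing irradiated mp53 cells to show the mp53 cells with and without a competitor. The same 2 genes were at the ends of the range. Among the 22 genes, 16 lay higher and 6 lower, with a median of 0.09, beside -0.05 over all probes. The median of the 22 was 0.18 within replicate 1 and -0.01 within replicate 2. Over the 18 genes, 12 lay higher and 6 lower. Their median was 0.08, beside -0.08 over the probes that met the condition in the same way. Rsad2 averaged 8.57 ± 0.16 in winners and 7.54 ± 0.80 in non-competing mp53 cells, a difference of 1.03 (SE 0.47, adjusted p = 1), with 1.71 within replicate 1 and 0.35 within replicate 2. Ifitm1 averaged 8.57 ± 0.29 in winners and 9.63 ± 0.74 in non-competing mp53 cells, a difference of -1.06 (SE 0.40, adjusted p = 1). Without non-competing irradiated mp53 replicate 1, these differences were 0.46 for Rsad2 and -0.53 for Ifitm1, and without its replicate 2 they were 1.59 and -1.58. Of the 18 genes, the arrays did not overlap for 2 that lay higher (11.1%, beside 10.4% of such probes), namely Rsad2 and Ifitm2, and for 2 that lay lower (11.1%, beside 17.2%), namely Ifitm1 and Trim25 (-0.08, which turned to 0.55 under median scaling), so the shares were near or under those of all probes. That scaling put the median of all probes at 0.34 here. A second Ifitm2 probe had -0.18, beside 0.33 for the first, and turned to 0.39 under median scaling. Of 13512 probes limma called 0 (0%). With an unadjusted p under 0.05 there were 394, with 0 of the 22 genes higher (beside 1.35%) and 1 lower (Ifitm1, beside 1.56%). All 17 HSC markers lay lower (median -1.84, sums of 828 to 1540 in winners and 2440 to 6820 in non-competing mp53 cells) and all 15 granulocyte and monocyte markers higher (median 2.0, sums of 38000 to 42100 in winners and 1040 to 41500 in non-competing mp53 cells), and their part in the result was not tested.

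Losers were set against non-competing irradiated WT cells, the WT cells of irradiated mice without a competitor. Among the 22 tested genes, 9 lay higher and 13 lower in losers, with a median of -0.09 (-0.01 over the 18), beside 0.03 over all probes, -0.07 within replicate 1 and -0.01 within replicate 2. Irf1 averaged 4.88 ± 0.76 in losers and 5.75 ± 0.38 in non-competing WT cells, a difference of -0.87 (SE 0.60, adjusted p = 0.912), which was -0.33 without loser replicate 1 and -1.41 without loser replicate 2. Rsad2 lay lower in losers by a similar amount, -0.86 (SE 0.47, adjusted p = 0.912). Ifitm1 measured 10.19 and 10.10 in losers and 9.46 and 9.20 in non-competing WT cells, a difference of 0.81 (SE 0.40, adjusted p = 0.912) that turned to -0.15 under median scaling. Parp9 differed by -0.80 (SE 0.49, adjusted p = 0.912), and Dtx3l by 0.76 (SE 0.78, adjusted p = 0.917), which turned to -0.05 under median scaling. Second probes had the opposite sign for both, 0.55 for Parp9 and -0.31 for Dtx3l. In this comparison a second probe had the sign of the first for 3 of 7 genes. Among the 18 genes, both arrays of each group stood apart for 3 that lay higher (16.7%, beside 21.3% of such probes), namely Ifitm1, Ifitm2 and Xaf1, and Ifitm2 (0.38) and Xaf1 (0.30) also turned, to -0.63 and -0.06, under median scaling. That scaling put the median of all probes at -0.29. Relative to it Ifitm1 lay at 0.14, Xaf1 at 0.23, Dtx3l at 0.24 and Ifitm2 at -0.33. The arrays did not overlap for 4 genes that lay lower (22.2%, beside 15.5%), namely Irf1, Rsad2, Parp9 and Irf9. The limma fit called 0 of 13512 probes (0%). At an unadjusted p under 0.05 there were 551 probes, 1.81% of all higher and 2.26% lower, and 0 of the 22 genes. In losers 16 of 17 HSC markers lay higher (median 0.83) and all 15 granulocyte and monocyte markers lower (median -1.88, sums of 4910 to 23300 in losers and 33600 to 45600 in non-competing WT cells), and their part in the result was not tested.

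The competition by genotype interaction takes the winner minus non-competing mp53 difference and subtracts the loser minus non-competing WT difference. Of the 22 genes 14 were positive and 8 negative, with a median of 0.26, beside -0.10 over all probes. Over the 18 genes, 10 were positive and 8 negative. Their median was 0.19, beside -0.15 over the probes that met the condition in the same way. Rsad2 had 1.89 (SE 0.67, adjusted p = 0.599) and Ifitm1 had -1.87 (SE 0.57, adjusted p = 0.599). Both kept their sign within each replicate, with 2.53 and 1.25 for Rsad2 and -2.10 and -1.64 for Ifitm1. In the interaction limma called 0 of 13512 probes (0%). With an unadjusted p under 0.05 there were 1051 probes, with 1 of the 22 genes positive (beside 4.29%) and 1 negative (beside 3.49%). Of the HSC markers all 17 were negative (median -2.81) and of the granulocyte and monocyte markers all 15 positive (median 4.01), and their part in the result was not tested. The pair comparisons behind the interaction enter it, so their values are not independent of it.

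In mosaic mice that were not irradiated, mp53 cells were compared with WT cells of the same kind of mouse. Of the 22 genes 6 lay higher and 16 lower in mp53 cells, with a median of -0.09, beside -0.05 over all probes, and with -0.26 within replicate 1 and -0.07 within replicate 2. Parp9 measured 5.17 and 6.40 in mp53 cells and 6.70 and 7.28 in WT cells. The difference was -1.20 (SE 0.49, adjusted p = 0.805), and it was -0.59 without unirradiated mosaic mp53 replicate 1 and -1.82 without its replicate 2. Xaf1 measured 6.11 and 4.92 in mp53 cells and 4.91 and 4.81 in WT cells, a difference of 0.65 (SE 0.39, adjusted p = 0.805) that was 0.06 without unirradiated mosaic mp53 replicate 1, the dimmest array, and 1.25 without its replicate 2. Parp14 differed by -0.78 (SE 0.87, adjusted p = 0.868), with -2.03 within replicate 1 and 0.47 within replicate 2. Trim25 (0.43) and Ifitm3 (0.45) lay higher in mp53 cells and turned to -1.04 and -0.94 under median scaling, beside -0.66 for all probes. Of the 18 genes 2 lay higher without overlap (11.1%, beside 14.7% of such probes), namely Xaf1 and Ifitm3. The arrays of 5 lay lower without overlap (27.8%, beside 13.1%), namely Parp9, Irf1, Irf9, Gbp3 and Dtx3l. The loser group, which holds the other dim array, had 6 of the 18 below unirradiated mosaic WT cells in the same way, and the part of brightness in these counts was not tested. Second probes of Dtx3l and Ifitm3 had 0.61 and -0.23, beside -0.66 and 0.45 for the first. A second probe had the sign of the first for 3 of 7 genes in the unirradiated comparison. Here limma called 0 of 13512 probes (0%). At an unadjusted p under 0.05 there were 591, with 0 of the 22 genes higher (beside 2.19%) and 1 lower (Parp9, beside 2.18%). The HSC markers lay higher for 6 of 17 (median -0.13) and the granulocyte and monocyte markers for 6 of 15 (median -0.12).

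Irradiated mp53 cells and irradiated WT cells were also compared without competition. Among the 22 interferon-stimulated genes, 11 lay higher and 11 lower in mp53 cells, with a median of 0.02, beside 0.00 over all probes, and differences from -0.36 to 0.58. Ifitm2 measured 9.86 and 9.72 in mp53 cells and 9.01 and 9.41 in WT cells, a difference of 0.58 (SE 0.28, adjusted p = 1). Trim30a, a TRIM protein that restrains NF-kB signalling in mouse cells, measured 7.28 and 6.95 in mp53 cells and 7.96 and 7.0 in WT cells. Its difference of -0.36 (SE 0.88, adjusted p = 1) turned to 0.09 under median scaling and to 0.12 without non-competing irradiated WT replicate 1, and was -0.84 without its replicate 2. Median scaling put the median of all probes at 0.23 here, and Trim30a lay at -0.14 relative to it. Dtx3l (0.54) and Ifitm3 (0.42) also lay higher and Gbp3 (-0.27) and Eif2ak2 (-0.16) lower, and Gbp3 and Eif2ak2 turned to 0.05 and 0.34 under median scaling. Both arrays of each group stood apart for 1 of the 18 genes that lay higher (5.56%, beside 11.3% of such probes), Ifitm2, and for 0 that lay lower (beside 8.04%). No probe of 13512 was called by limma (0%), and 130 had an unadjusted p under 0.05, 0.725% of all higher and 0.237% lower, with 0 of the 22 genes among them. In mp53 cells 16 of 17 HSC markers lay higher (median 0.54, sums of 2440 to 6820 in mp53 cells and 1940 to 4850 in WT cells). All 15 granulocyte and monocyte markers lay lower (median -1.77, sums of 1040 to 41500 in mp53 cells and 33600 to 45600 in WT cells), and the part of these markers in the result was not tested.

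Irradiated cells were also set against cells of unirradiated mosaic mice. For non-competing WT cells, 6 of the 22 genes lay higher and 16 lower than in unirradiated mosaic WT cells, with a median of -0.15, beside 0.01 over all probes, -0.06 within replicate 1 and -0.19 within replicate 2. Ifitm1 measured 9.46 and 9.20 in irradiated WT cells and 9.73 and 10.50 in unirradiated WT cells, a difference of -0.78 (SE 0.40, adjusted p = 1). It was -1.17 without unirradiated mosaic WT replicate 1 and -0.40 without its replicate 2. Ifit2 differed by -0.63 (SE 0.57, adjusted p = 1), Gbp3 by -0.57 (SE 0.40, adjusted p = 1) and Xaf1 by 0.37 (SE 0.39, adjusted p = 1). Isg20 (0.36) and Irf9 (0.13) turned to -0.08 and -0.22 under median scaling, beside -0.24 for all probes. Of the 18 genes, the arrays did not overlap for 1 that lay higher (5.56%, beside 15.6% of such probes), Xaf1, and for 3 that lay lower (16.7%, beside 14.5%), Ifitm1, Ifitm2 and Ifit2. Among 13512 probes limma called 0 (0%), and 236 had an unadjusted p under 0.05, 0.407% of all higher and 1.34% lower, with 0 of the 22 genes among them. All 17 HSC markers lay lower in the irradiated WT cells (median -1.01) and all 15 granulocyte and monocyte markers higher (median 1.57), whose part in the result was not tested. Among the HSC markers, Tek was detected in unirradiated mosaic WT cells alone.

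For non-competing mp53 cells against unirradiated mosaic mp53 cells, 10 genes lay higher and 12 lower, with a median of -0.09, beside 0.03 over all probes. Dtx3l measured 7.89 and 5.86 in irradiated mp53 cells and 5.84 and 5.78 in unirradiated mp53 cells, a difference of 1.06 (SE 0.78, adjusted p = 0.887). It was 2.04 within replicate 1 and 0.08 within replicate 2. It was 0.05 without non-competing irradiated mp53 replicate 1 and 2.07 without its replicate 2, and a second Dtx3l probe had -0.36, which turned to 0.07 under median scaling. Parp9 (0.95) and Irf9 (0.92) also lay higher. Trim25 measured 8.95 and 9.04 in irradiated mp53 cells and 10.14 and 9.08 in unirradiated mp53 cells, a difference of -0.62 (SE 0.39, adjusted p = 0.887) that turned to 0.84 under median scaling. Without unirradiated mosaic mp53 replicate 1 it was -0.08, and without replicate 2 it was -1.15. Both arrays of each group stood apart for 2 of the 18 genes that lay higher (11.1%, beside 11.5% of such probes), Dtx3l and Irf9, and for 1 that lay lower (5.56%, beside 11.5%), Trim25. By limma 0 of 13512 probes were called (0%), and 441 had an unadjusted p under 0.05, 1.84% of all higher and 1.43% lower, with 0 of the 22 genes among them. Without unirradiated mosaic mp53 replicate 2, 1 probe was called. The HSC markers lay lower for 14 of 17 in irradiated mp53 cells, with a median of -0.52. It turned to 0.66 under median scaling, beside 0.61 for all probes. The granulocyte and monocyte markers lay higher for 9 of 15 (median 0.16).

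In mosaic mice, losers were set against unirradiated WT cells. Among the 22 tested genes, 8 lay higher and 14 lower in losers, with a median of -0.17, beside -0.02 over all probes, -0.17 within replicate 1 and -0.20 within replicate 2. Irf1 averaged 4.88 ± 0.76 in losers and 6.03 ± 0.30 in unirradiated WT cells, a difference of -1.15 (SE 0.60, adjusted p = 0.951), which was -0.61 without loser replicate 1. Xaf1 measured 5.65 and 5.42 in losers and 4.91 and 4.81 in unirradiated WT cells, a difference of 0.67 (SE 0.39, adjusted p = 0.951). Of the 18 genes, 6 had arrays that lay lower without overlap (33.3%, beside 15.5% of such probes), Irf1, Parp9, Rsad2, Gbp3, Eif2ak2 and Irf9, and Xaf1 alone lay higher (5.56%, beside 20.7%). The number of probes called by limma was 0 of 13512 (0%), and 515 had an unadjusted p under 0.05, 1.67% of all higher and 2.14% lower, with 0 of the 22 genes among them. In losers 12 of 17 HSC markers (median -0.25) and 11 of 15 granulocyte and monocyte markers (median -0.29) lay lower.

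Winners were set against unirradiated mosaic mp53 cells in turn. Of the 22 genes 12 lay higher and 10 lower in winners, with a median of 0.10, beside 0.02 over all probes. The median of the 22 was 0.37 within replicate 1, 0.05 within replicate 2 and -0.07 without winner replicate 1. Over the 18 genes, 10 lay higher and 8 lower. Their median was 0.10, beside 0.00 over the probes that met the condition in the same way. Rsad2 averaged 8.57 ± 0.16 in winners and 7.22 ± 0.49 in unirradiated mp53 cells, a difference of 1.36 (SE 0.47, adjusted p = 0.37). Ifitm1 averaged 8.57 ± 0.29 in winners and 10.03 ± 0.07 in unirradiated mp53 cells, a difference of -1.45 (SE 0.40, adjusted p = 0.37) that turned to 0.61 under median scaling, beside 1.05 for all probes. Irf9 averaged 6.0 ± 0.18 in winners and 4.98 ± 0.74 in unirradiated mp53 cells, a difference of 1.03 (SE 0.41, adjusted p = 0.37), which was 0.50 without unirradiated mosaic mp53 replicate 1 and 1.55 without replicate 2. Of the 18 genes, the arrays did not overlap for 5 that lay higher (27.8%, beside 20.7% of such probes), namely Rsad2, Isg20, Irf9, Parp9 and Ifitm2, and for 2 that lay lower (11.1%, beside 22.9%), Ifitm1 and Trim25, and Trim25 (-0.70) turned to 1.39 under median scaling. A second Ifitm2 probe had -0.37, beside 0.61 for the first, and turned to 1.00 under median scaling. Limma called 0 of 13512 probes (0%). With an unadjusted p under 0.05 there were 1800, with 2 of the 22 genes higher (Rsad2 and Irf9, beside 6.38%) and 1 lower (Ifitm1, beside 6.94%). Without unirradiated mosaic mp53 replicate 2, 599 probes were called by limma, where Irf9 had 1.55 with an adjusted p of 0.0565. All 17 HSC markers lay lower in winners (median -2.30) and all 15 granulocyte and monocyte markers higher (median 1.60), whose part in the result was not tested.

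The irradiation by genotype interaction in mosaic mice subtracts the loser minus unirradiated WT difference from the winner minus unirradiated mp53 difference. Of the 22 genes 15 were positive and 7 negative, with a median of 0.50, beside 0.09 over all probes. The median of the 22 was 0.58 within replicate 1 and 0.24 within replicate 2. Over the 18 genes, 12 were positive and 6 negative. Their median was 0.39, beside 0.05 over the probes that met the condition in the same way. Rsad2 had 2.19 (SE 0.67, adjusted p = 0.301), Parp9 1.69 (SE 0.69, adjusted p = 0.313) and Irf9 1.45 (SE 0.58, adjusted p = 0.306). Ifitm1 had -1.48 (SE 0.57, adjusted p = 0.304), which turned to 1.99 under median scaling, beside 1.80 for all probes. Xaf1, not detected in winner replicate 2, had -1.40 (SE 0.55, adjusted p = 0.305). Limma called 0 of 13512 probes (0%). At an unadjusted p under 0.05 there were 2101, with 3 of the 22 genes positive (Rsad2, Parp9 and Irf9, beside 6.31%) and 2 negative (Ifitm1 and Xaf1, beside 9.24%). Without unirradiated mosaic mp53 replicate 2, where the group rests on its dimmest array, 1285 probes were called and Xaf1 was -1.99 with an adjusted p of 0.0396. Without unirradiated mosaic mp53 replicate 1, Xaf1 was -0.80, Irf9 0.93 and Parp9 1.08. Of the HSC markers 16 of 17 were negative, with a median of -2.0. Under median scaling that median was 0.54, beside 1.80 for all probes. Relative to all probes it lay at -1.26, with 14 of the 17 markers below. The granulocyte and monocyte markers were all positive (15 of 15, median 2.42), and the part of these markers in the result was not tested.

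**Figure D4:**
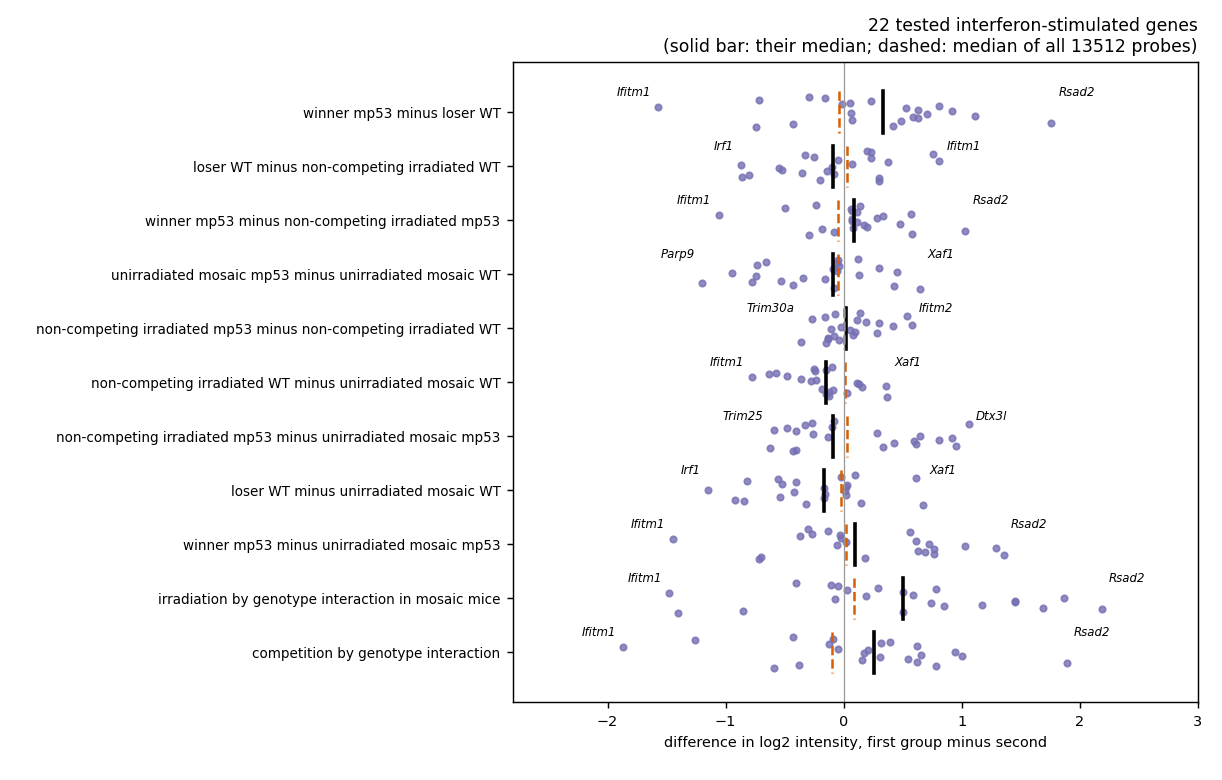
Difference in log2 intensity of each of the 22 tested genes (points) in the 11 comparisons (rows), first group minus second; solid bars are the median of the 22 and dashed bars the median of all 13512 tested probes, and the genes at each end are named. Rsad2 and Ifitm1 lie at opposite ends in 5 comparisons that involve winners, 0 probes passed the test in any row, and under median scaling the sign turns for Ifitm1 in 4 rows where it is named, for Trim30a in 1 and for Trim25 in 1.

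Over the 6 group means, 7 of the 18 genes that met the detection condition through at least 2 groups were highest in unirradiated mosaic WT cells (beside 16.2% of such probes), 6 in winners (22.4%), 3 in losers (19.7%) and 2 in unirradiated mosaic mp53 cells (23%). None was highest in a non-competing irradiated group (8.83% of such probes for mp53, 9.78% for WT). None was lowest in unirradiated mosaic WT cells (10.4%), while 5 were lowest in unirradiated mosaic mp53 cells (23.8%), 4 in winners (31%), 3 in losers (20.4%), 3 in non-competing irradiated mp53 cells (4.52%) and 3 in non-competing irradiated WT cells (9.86%). The genes therefore did not share 1 order of the groups. A second probe passed the detection condition for 7 of the genes (Ifitm1, Ifitm2, Ifitm3, Parp9, Parp14, Dtx3l and Adar), and in winners against losers it had the sign of the first probe for 4 of the 7. The signs differed for Parp9 (-0.33, beside 0.49), Dtx3l (0.04, beside -0.72) and Adar, the RNA-editing deaminase (0.39, beside -0.29). Under median scaling the negative values of these 3 genes turned, to 0.04 for the second Parp9 probe, 0.98 for the first Dtx3l probe and 1.51 for the first Adar probe. The median of all probes was 1.07 there.

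The rest of the pathway was followed in 4 further lists. Of 15 ligand and receptor genes 14 had a probe and 4 were tested. Interferon beta (Ifnb1), interferon gamma (Ifng) and the receptor chain Ifnar1 were detected on no array. Ifngr2, a chain of the interferon gamma receptor, measured 9.24 and 9.0 in winners, 7.63 and 7.96 in losers, 6.88 and 8.95 in non-competing irradiated mp53 cells, 8.12 and 8.73 in non-competing irradiated WT cells, 7.85 and 7.63 in unirradiated mosaic mp53 cells and 8.50 and 7.62 in unirradiated mosaic WT cells. Ifnar2, a chain of the type I receptor, measured 5.65 and 5.75 in winners, 4.89 and 5.16 in losers, 5.64 and 5.66 in non-competing irradiated mp53 cells, 5.33 and 5.53 in non-competing irradiated WT cells, 4.63 and 5.26 in unirradiated mosaic mp53 cells and 5.31 and 5.23 in unirradiated mosaic WT cells. The winners were the highest group for both genes. Il10rb, shared by the receptors of interleukin-10 and interferon lambda, measured 7.26 and 6.59 in winners, 5.11 and 5.36 in losers, 6.01 and 6.08 in non-competing irradiated mp53 cells, 6.32 and 6.46 in non-competing irradiated WT cells, 6.73 and 5.53 in unirradiated mosaic mp53 cells and 6.53 and 5.32 in unirradiated mosaic WT cells. Ifnlr1, the other chain of the lambda receptor, measured 8.83 and 9.12 in winners, 4.86 and 6.29 in losers, 4.25 and 8.96 in non-competing irradiated mp53 cells, 7.82 and 8.76 in non-competing irradiated WT cells, 4.31 and 7.70 in unirradiated mosaic mp53 cells and 6.75 and 5.62 in unirradiated mosaic WT cells, a wide range within groups. All 4 tested receptor genes (Ifngr2, Ifnar2, Il10rb and Ifnlr1) lay higher in winners than in losers, with a median of 1.51, and all 4 lay lower in losers than in non-competing irradiated WT cells, with a median of -0.89. Ifnar2 and Ifnlr1 in loser replicate 1 and unirradiated mosaic mp53 replicate 1 lay under those arrays' lowest detected values, 4.90 and 5.04. So did Ifnlr1 in non-competing irradiated mp53 replicate 1, where that value was 4.66. Such values are only bounds, and those of losers enter both medians. None of the 4 was called in any comparison.

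Of 16 signalling genes 13 were tested, of which 9 lay higher and 4 lower in winners than in losers (median 0.30). Irf8, a factor of myeloid and dendritic cells, measured 8.99 and 7.74 in winners. It was not detected in losers (4.29 and 4.47), so no fold is given. Socs3, a feedback inhibitor of JAK kinases, measured 6.80 and 6.51 in winners and 4.91 and 4.63 in losers. The value of Socs3 in loser replicate 2 lay under the lowest detected value of that array, 4.79. Socs1, another such inhibitor, measured 5.34 and 5.46 in winners and 6.19 and 6.01 in losers. Irf3 measured 8.45 and 8.83 in winners and 9.49 and 9.44 in losers. Both thus lay lower in winners. Their differences of -0.70 and -0.83 turned to 0.66 and 1.25 under median scaling, beside 1.07 for all probes. Of 14 genes that sense nucleic acids upstream of interferon 9 were tested, 5 higher and 4 lower (median 0.09, and -0.02 without Tlr7, which was tested through the winners alone), with Myd88, an adaptor of Toll-like receptors, at 8.05 and 7.84 in winners and 5.94 and 7.11 in losers. These genes were picked from their lists after their values were seen. Of 73 further interferon-induced genes 66 had a probe and 46 were tested, with 21 higher and 25 lower in winners than in losers and a median of -0.08, beside -0.04 over all probes. Tgtp1 and Ube2l6 were tested through a single group that was not the winners. Over the 44 genes tested through at least 2 groups, 21 lay higher and 23 lower. Their median was -0.04, beside -0.08 over the probes that met the condition in the same way. Under median scaling the 46 genes had a median of 1.23, beside 1.07 for all probes. Limma called 0 genes of these lists in any of the 11 comparisons. At an unadjusted p under 0.05, winners against losers gave 2 of 4, 3 of 13, 1 of 9 and 5 of 46 genes higher in the 4 lists in that order, beside 7.34% of all probes, and 0, 1, 0 and 3 lower, beside 6.37%.

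The replicate number, which is also the table in which the arrays were deposited, separated several genes. In a fit with the replicate number as a term beside the 6 groups, a comparison made after the values were seen, limma called 4 of the 22 genes. Trim30a lay 1.27 higher in replicate 1 (SE 0.27, adjusted p = 0.0132) and Dtx3l 1.11 higher (SE 0.24, adjusted p = 0.0138), each in 6 of 6 groups. Irf1 differed by -0.89 (SE 0.16, adjusted p = 0.00755) and Parp14 by -1.13 (SE 0.32, adjusted p = 0.0372), each lower in replicate 1 in 6 of 6 groups. Median scaling put the median of the probes at -0.42, and there Irf1 (-1.22, adjusted p = 0.0243) and Parp14 (-1.86, adjusted p = 0.0153) were still called, while Trim30a (0.25, adjusted p = 0.526) and Dtx3l (0.52, adjusted p = 0.195) were not. Over all probes 12.6% were called higher and 11.6% lower in replicate 1, so 2 genes in each direction is near the background. Trim30a measured 8.19, 8.0, 7.28, 7.96, 8.82 and 8.23 on the replicate 1 arrays of winners, losers, non-competing irradiated mp53 and WT cells, and unirradiated mosaic mp53 and WT cells. In the same order it measured 7.20, 6.55, 6.95, 7.0, 6.21 and 6.96 on the replicate 2 arrays, all of them below the replicate 1 values. Ifih1 was detected on 5 arrays, all of replicate 1, with 5.34 in winners and 6.43 in unirradiated mosaic mp53 cells, while Stat2 was detected on replicate 2 arrays alone. The labels do not say that a number marks a shared day or batch.

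**Figure D5:**
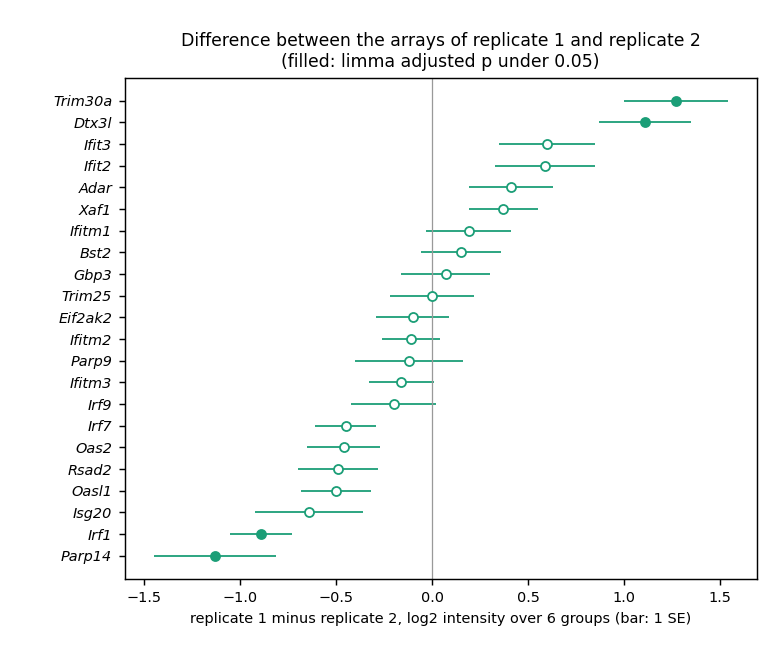
Difference between replicate 1 and replicate 2 over the 6 groups for the 22 tested genes (points, log2 intensity on the x axis; bars are 1 standard error, filled points have a limma adjusted p under 0.05). Trim30a and Dtx3l lie to the right, at 1.27 and 1.11, and Irf1 and Parp14 to the left, at -0.89 and -1.13.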

How the data were processed

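Each array measured RNA of sorted HSCs, amplified in 2 rounds per the labels' protocols. The deposited tables of non-normalized values, 1 per replicate number, hold a linear bead intensity and a detection p-value per probe and array, per the file headers. The authors' processed table, used as an alternative, holds linear intensities whose values are quantile normalized within each replicate number, as judged from the values. Scanner software is not given in the sources used here. All value columns were matched to samples by their titles.

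From the deposited intensities, the background was corrected by normexp with the detection p-values (offset 16), followed by quantile normalization over 12 arrays and log2, with limma 3.58.1 in R 4.3.3. Of 46632 probes, 13512 were fitted, those detected (p under 0.05) on both arrays of 1 or more groups, with 6 group means, leaving 6 residual degrees of freedom. The 9 pairs and 2 interactions were each adjusted over all 13512 probes by Benjamini-Hochberg, with a threshold of 0.05. Platform annotation gave 29976 probes 1 symbol, 10 several and 16646 none. The script was tested on simulated data.

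Values per array are given for the factors that carry the signal and, per pair, for the 3 genes highest and the 3 lowest in difference that were detected on both arrays of a group compared. The genes and lists were chosen with earlier results of these data known. Alternatives were other filters, median scaling, no or another background correction, the authors' table, another variance prior, the mean of a gene's probes, the replicate number as a block, and leaving out arrays.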

Additional observations from a re-analysis of the deposited data

How the results depend on the processing

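Over 22 alternatives with a test and 11 comparisons, Xaf1 was the only interferon-stimulated gene called, with an irradiation by genotype interaction of -1.99 (limma, adjusted p = 0.0396) without unirradiated mosaic mp53 replicate 2. Of the other pathway genes 7 were called, also without that array alone, Irf8 among them (6.02 in that interaction, adjusted p = 0.0416). Leaving that array out gave 1285 called probes in that interaction, 599 in winners against unirradiated mosaic mp53 cells and 1 in non-competing irradiated against unirradiated mosaic mp53 cells, where the lone array was assumed to vary like the other groups. For winners against losers 1 probe was called without the detection filter, 1 under median scaling and 3 with the trended and robust prior, and for winners against non-competing mp53 cells 1 under median scaling. Median scaling turned Ifitm1 to 0.49 (winners against losers), -0.15 (losers against non-competing WT), 0.61 (winners against unirradiated mp53) and 1.99 (irradiation by genotype), Trim30a to 0.09 and Trim25 to 0.84. Relative to all probes these were -0.59, 0.14, -0.44, 0.19, -0.14 and 0.23 in the same order. Trim30a ran from -0.84 to 0.12 with 1 array left out, 0.12 without non-competing irradiated WT replicate 1, and the cause was not tested.

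The median difference of the interferon-stimulated genes under median scaling was 1.76 for winners against losers, -0.64 for losers against non-competing WT, 0.59 for winners against non-competing mp53, -1.25 between the unirradiated groups, 0.39 between the non-competing groups, -0.66 and 1.02 for non-competing WT and mp53 against unirradiated, -1.34 for losers and 1.68 for winners against unirradiated, and 2.84 and 1.34 for the irradiation and competition interactions. Relative to all probes these were 0.68, -0.35, 0.25, -0.58, 0.16, -0.42, 0.41, -0.60, 0.64, 1.04 and 0.65 in the same order. Without the filter it was 0.06 for winners against losers, -0.10 for losers against unirradiated WT and 0.19 for the irradiation interaction. The stricter filter gave 0.15 for winners against losers and -0.01 for losers against non-competing WT. So did leaving out probes tested through 1 group alone, an alternative chosen after seeing the data, with 0.15 and -0.01. For losers against unirradiated WT it was -0.14 with no background correction, -0.13 with an offset of 50, -0.13 in the authors' table, -0.39 with the mean of a gene's probes and -0.26 without the 2 dimmest arrays. For losers against non-competing WT it was -0.04 with an offset of 50, -0.13 with the mean of a gene's probes and 0.00 without the 2 dimmest arrays, which gave 0.06 for non-competing against unirradiated mp53.

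With 1 array left out at a time, the median ran from 0.18 to 0.50 for winners against losers, -0.21 to 0.00 for losers against non-competing WT, 0.08 to 0.20 for winners against non-competing mp53, -0.36 to -0.09 between unirradiated groups and -0.04 to 0.15 between non-competing groups. It ran from -0.32 to -0.08 for non-competing WT and -0.09 to 0.18 for non-competing mp53 against unirradiated, -0.30 to -0.06 for losers and -0.07 to 0.30 for winners against unirradiated, and 0.26 to 0.61 and 0.13 to 0.48 for the irradiation and competition interactions. With the replicate number as a block, 0 probes were called in all 11 comparisons and Rsad2 in winners against losers was 1.76 (limma, adjusted p = 0.126). Same-numbered arrays had deviations from their group means that correlated at a median of 0.526 over 15 pairs of groups (0.057 to 0.643, over 0.1 in 14), and each of the 12 arrays correlated best with an array of its own number. These correlations are a hint from the data of a factor shared by number. As 1 pair was not over 0.1 and the labels name no shared batch, the fit without the block was kept. Its standard errors and p-values therefore count any shift between the replicate numbers as spread. Dim arrays limit what can be detected, and genes near background carry only bounds.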
